A study of Mus musculus with 8 samples.

Results

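The piRNA pathway genes described here are 10 genes chosen by name: Piwil2, Piwil4, Mael, Asz1, Tdrd1, Tdrd5, Tdrd9, Mov10l1, Ddx4 and Pld6. They are 10 of the 24062 genes in the count table, and all 10 passed the filter on low counts. RNA-seq of poly(A) RNA was performed in mouse embryonic stem cells (mESCs) of 1 line, #33-6, in which Setdb1 can be deleted with 4-hydroxytamoxifen (4-OHT). All groups carry this conditional allele, and each of the 4 conditions has 2 biological replicates. WT mESCs received neither agent. UNC0642-treated mESCs received 2 µM UNC0642, an inhibitor of the H3K9 methyltransferases G9a and GLP, for 3 days. Setdb1 KO mESCs received 800 nM 4-OHT for 5 days. UNC0642-treated Setdb1 KO mESCs received, by their labels, 800 nM 4-OHT for 2 days and 2 µM UNC0642 for 3 days. WT mESCs had no 4-OHT, so 4-OHT and the deletion of Setdb1 cannot be told apart, and the line is a single one. The study's methods give the same length of 4-OHT treatment for both KO conditions, and the labels do not.

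The piRNA pathway is a small RNA defence of the germline. PIWI proteins carry piRNAs that match transposon transcripts, cleave those transcripts and, in fetal male germ cells, direct DNA methylation to the matching copies. Piwil2 (MILI) encodes the cytoplasmic slicer and Piwil4 (MIWI2) the nuclear PIWI protein. Mov10l1 encodes the RNA helicase that hands precursor transcripts to PIWI proteins, Pld6 (MitoPLD) the mitochondrial nuclease of piRNA maturation, and Asz1 (GASZ) a scaffold on the same mitochondrial surface. Mael and Ddx4 (VASA) encode components of germ granules, and Tdrd1, Tdrd5 and Tdrd9 encode Tudor domain proteins that bind PIWI proteins or their RNA. In somatic and pluripotent cells many such germline genes are held down by promoter DNA methylation and by a complex of E2F6, MGA and MAX with H3K9 methyltransferases.

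The promoters are shown because germline genes of this kind are known to carry the binding motifs of that complex close to the start site. RefSeq promoter windows on GRCm38.p6, 250 bases before and 50 bases after an annotated start, were found for 9 of the 10 genes (13 windows). Each window below is printed 5′ to 3′ in the direction of the gene, with motif matches in capitals: CACGTG, the E-box bound by MAX and MGA, and TCCCGC, an E2F6 motif, searched on both strands (GCGGGA on the other).
Mael (chr1:166238695-166238994, - strand): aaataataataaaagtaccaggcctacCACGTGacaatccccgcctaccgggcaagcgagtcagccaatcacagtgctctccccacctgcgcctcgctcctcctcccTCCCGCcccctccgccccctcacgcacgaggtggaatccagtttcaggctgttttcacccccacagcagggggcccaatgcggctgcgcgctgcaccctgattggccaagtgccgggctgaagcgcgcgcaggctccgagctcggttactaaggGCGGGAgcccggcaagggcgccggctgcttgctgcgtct
Mov10l1 (chr15:88982744-88983043, + strand): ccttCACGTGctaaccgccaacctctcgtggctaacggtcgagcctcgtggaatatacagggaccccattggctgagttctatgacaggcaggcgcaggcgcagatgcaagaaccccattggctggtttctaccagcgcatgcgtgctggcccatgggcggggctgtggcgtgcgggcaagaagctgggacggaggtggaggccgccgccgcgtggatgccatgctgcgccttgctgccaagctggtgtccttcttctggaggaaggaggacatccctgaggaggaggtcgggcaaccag
Ddx4 (chr13:112652261-112652560, - strand): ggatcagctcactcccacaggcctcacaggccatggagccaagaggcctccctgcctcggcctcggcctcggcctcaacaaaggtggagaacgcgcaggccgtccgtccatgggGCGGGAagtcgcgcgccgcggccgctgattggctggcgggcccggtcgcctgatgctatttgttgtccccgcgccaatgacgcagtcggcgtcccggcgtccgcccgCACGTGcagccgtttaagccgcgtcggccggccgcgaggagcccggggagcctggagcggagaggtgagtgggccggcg
Tdrd9 (chr12:111971309-111971608, + strand): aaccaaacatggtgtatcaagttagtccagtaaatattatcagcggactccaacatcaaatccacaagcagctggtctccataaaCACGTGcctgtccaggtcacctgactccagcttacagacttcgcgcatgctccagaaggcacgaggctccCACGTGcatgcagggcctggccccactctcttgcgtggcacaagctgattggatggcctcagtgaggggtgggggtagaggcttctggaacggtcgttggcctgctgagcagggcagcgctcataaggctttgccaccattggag
Asz1 (chr6:18109012-18109311, - strand): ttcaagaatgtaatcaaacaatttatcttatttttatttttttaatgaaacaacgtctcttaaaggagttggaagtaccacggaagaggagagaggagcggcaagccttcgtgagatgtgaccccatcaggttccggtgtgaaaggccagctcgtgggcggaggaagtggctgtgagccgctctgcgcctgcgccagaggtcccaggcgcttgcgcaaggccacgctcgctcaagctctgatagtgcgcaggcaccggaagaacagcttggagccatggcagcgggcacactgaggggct
Piwil4 (chr9:14740623-14740922, - strand): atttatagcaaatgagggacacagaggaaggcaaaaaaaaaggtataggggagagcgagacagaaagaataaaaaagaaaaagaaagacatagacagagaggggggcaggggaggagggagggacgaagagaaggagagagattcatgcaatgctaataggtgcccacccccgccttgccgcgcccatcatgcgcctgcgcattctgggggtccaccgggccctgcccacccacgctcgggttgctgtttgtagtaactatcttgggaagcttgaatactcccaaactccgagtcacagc
The first 4 genes are those whose values were highest in Setdb1 KO mESCs relative to WT, Asz1 is the gene that stood out in the combined condition, and Piwil4 is the gene that was lowest in Setdb1 KO mESCs. Mael, Mov10l1, Ddx4 and Tdrd9 each hold at least 1 E-box, and neither Asz1 nor Piwil4 holds a match of either motif in these letters. Tdrd9 holds 2 E-boxes, starting 165 and 95 bases before its start site. The E-box of Ddx4 begins 29 bases before the start, that of Mael 223 bases and that of Mov10l1 246 bases before it. Both motifs were found together in Mael and in Ddx4. Tdrd1 holds an E-box 11 bases and Pld6 one 33 bases before an annotated start, and Tdrd5 holds an E2F6 motif only. An E-box was therefore found in 6 of the 9 genes, against 8.09% of the 27025 genes with a window and 11.3% of the 11284 tested genes with one. The E2F6 motif was found in 3 of the 9 genes, against 22.0% of all genes and 38.3% of tested genes. A match describes these letters alone and says nothing of binding. The printed windows were picked by the change in expression. The unprinted E-box genes Tdrd1 and Pld6 had log2 fold changes of 1.11 and -0.85 in Setdb1 KO mESCs, neither called by edgeR. Piwil2, at 1.66, had no window. Whether the motifs and the changes go together was not tested.

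**Figure D1:**
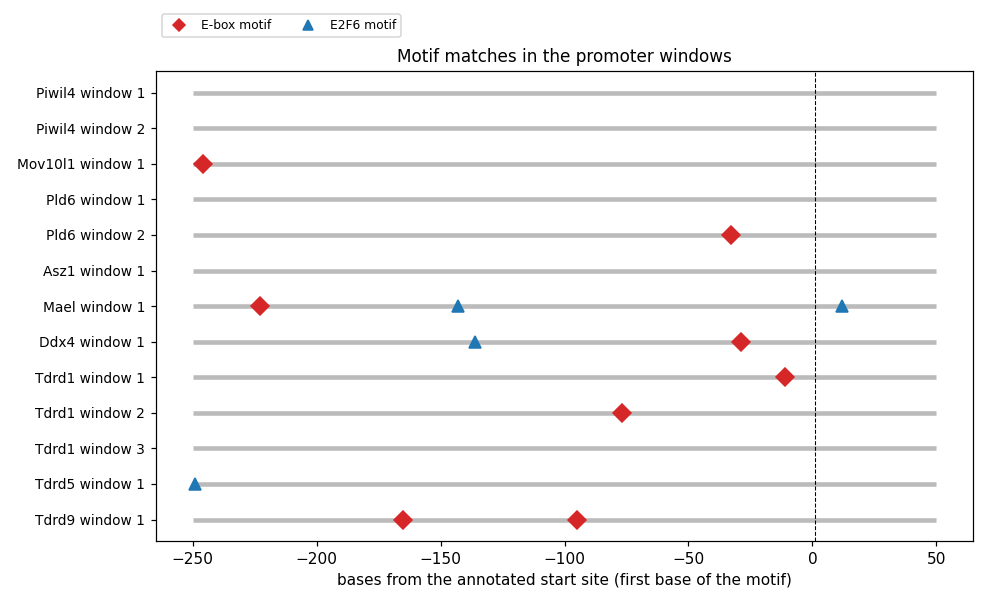
Positions of E-box (red diamonds) and E2F6 (blue triangles) motif matches in the 13 promoter windows, in bases from the annotated start site (dashed line). E-boxes lie in Mov10l1, Pld6, Mael, Ddx4, Tdrd1 and Tdrd9, and both Piwil4 windows and the Asz1 window are empty.

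The windows also differed in CpG content, given as the observed over expected number of CpG dinucleotides, which was 0.384 at the median of all 32851 windows and 0.722 at that of the 14276 windows of tested genes. It was 1.11 in Tdrd5, 0.978 in Ddx4, 0.783 in Asz1, 0.780 in Mael, 0.674 in Mov10l1 and 0.430 in Tdrd9. In Piwil4 it was 0.543 in the window near the gene start. Genomic DNA methylation was not analysed here.

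In the GENCODE M21 annotation of GRCm38 the 10 genes lie on 9 chromosomes. Tdrd5 (156255296 to 156303664) and Mael (166201201 to 166238747) are both on the minus strand of chromosome 1. Asz1 lies on chromosome 6 (18050964 to 18109061), Piwil4 on chromosome 9 (14696230 to 14740733), Pld6 on chromosome 11 (59783897 to 59787645), Ddx4 on chromosome 13 (112598333 to 112652475) and Piwil2 on chromosome 14 (70372477 to 70429383), all on the minus strand. Tdrd9 on chromosome 12 (111971559 to 112068854), Mov10l1 on chromosome 15 (88982909 to 89055152) and Tdrd1 on chromosome 19 (56826209 to 56870012) are on the plus strand. Exons of an antisense gene overlap exons of Piwil4 (Gm10706) and of Tdrd5 (4930518J20Rik). Whether the counting used strand is not given in the sources used here, so reads of these pairs cannot be told apart.

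Libraries held 11702590 to 26807807 counts in total, and 3 counts, taken as the floor of detection, corresponded to 0.108 to 0.311 CPM (counts scaled to a common library size). CPM values below were normalized by TMM over genes and transposable element subfamilies, whose share of all counts was between 2.77% and 17.1%. Setdb1 itself was at 170 and 127 CPM in WT, 131 and 86.4 in UNC0642-treated, 47.3 and 51.0 in Setdb1 KO and 61.1 and 34.1 CPM in UNC0642-treated Setdb1 KO mESCs. Every KO library was below every WT library, and the log2 fold change in Setdb1 KO mESCs was -1.59 (SE 0.439, adjusted p = 0.181, and 0.0164 with the replicate number as a block). These counts cover the whole gene and do not separate a deleted exon. The pluripotent markers Pou5f1 and Nanog were present in every library, with Pou5f1 between 567 and 1196 CPM, and 0 of 7 pluripotency genes passed the test in any comparison with WT. Of the primordial germ cell markers, 0 of 7 passed by edgeR in any of the 3, and 0 of 5 tested fibroblast markers did. All 7 primordial germ cell markers had log2 fold changes below 0 in Setdb1 KO and combined conditions (medians -0.645 and -0.805). Of the 7, 4 and 6 were lower there without overlap, against 13.1% and 21.1% of all features. The 6 fibroblast markers summed to 6.10 to 11.8 CPM in the replicate 1 libraries and to 16.5 to 23.9 CPM in the replicate 2 libraries, in all 4 conditions. With the block, Prdm1 was lower in Setdb1 KO mESCs, and Itgb3 and Pdgfrb were lower in the combined condition (adjusted p = 0.0168, 0.0217 and 0.0122). That fit called 0.492% of all tested genes and subfamilies lower in Setdb1 KO mESCs and 7.19% in the combined condition. The p-values rest on 1 spread per gene that the 4 conditions share, estimated from all 8 libraries, with 2 cultures per condition. In the blocked fit the difference between the replicate numbers is removed from it.

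The levels of the 10 genes in WT mESCs ranged widely. Per kilobase of the longest coding transcript, Ddx4 was at 10.7 CPM, above 63.3% of the 13782 tested genes with such a transcript. Piwil2 was at 4.89, Pld6 at 4.37 and Mael at 3.65 CPM per kilobase, above 47.2%, 45.1% and 41.8% of tested genes. Mov10l1 (1.93), Tdrd5 (1.46) and Piwil4 (0.646 CPM per kilobase) were lower, and Tdrd1 (0.276), Asz1 (0.160) and Tdrd9 (0.0587 CPM per kilobase) were lowest. Ddx4, Piwil2, Pld6 and Mael thus had transcripts near the middle of the tested genes in WT mESCs, so the 10 genes as a group were not silent there. Asz1 rested on 1 and 13 counts and Tdrd9 on 4 and 6 counts in the 2 WT libraries.

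**Figure D2:**
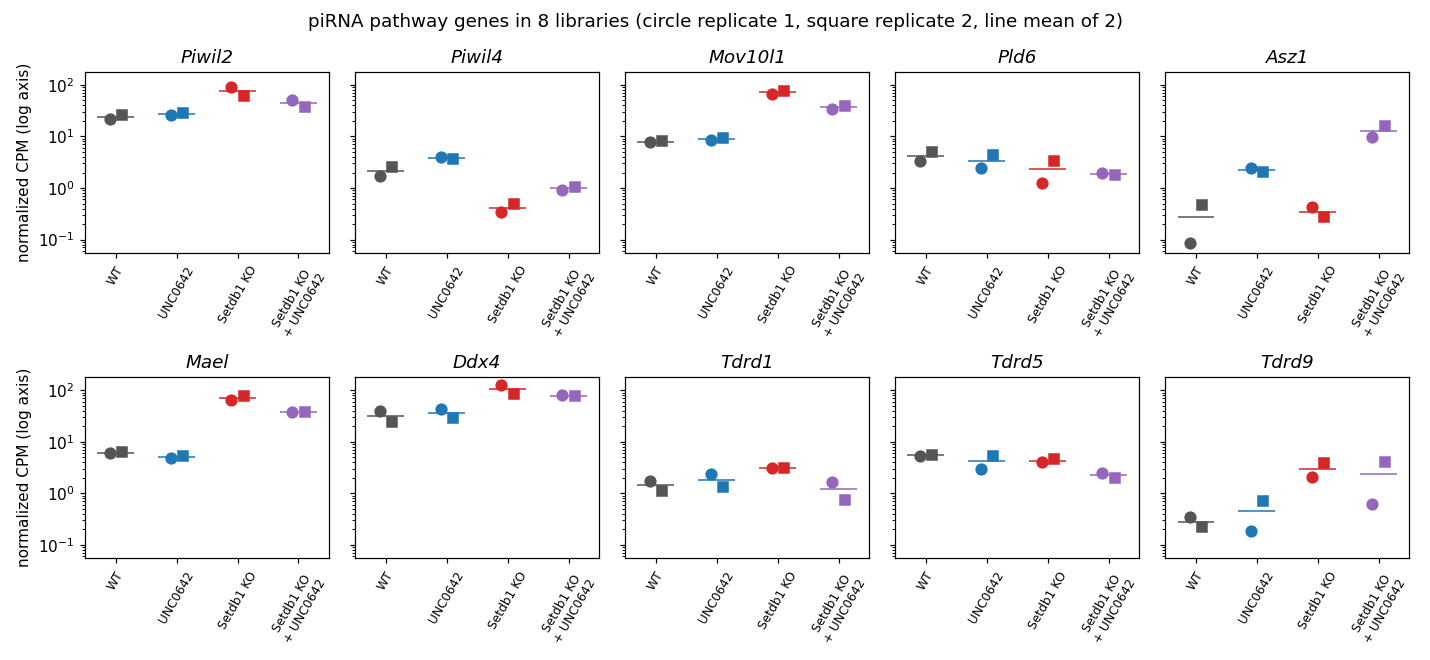
Normalized CPM of each gene (log axis) in the 4 conditions, with replicate 1 as a circle, replicate 2 as a square and the mean of 2 as a line. Mael and Mov10l1 sit above 60 CPM in both Setdb1 KO libraries and below 10 CPM in WT, and Asz1 is above 9 CPM only in the 2 UNC0642-treated Setdb1 KO libraries.

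The first comparison asked which genes change when Setdb1 is deleted. Mael and Mov10l1 rose in Setdb1 KO mESCs, by about an order of magnitude. Without the replicate block they were the only 2 of the 10 genes that passed the test (edgeR, adjusted p under 0.05), against 1.11% of the 16245 tested genes and subfamilies called higher. None of the 10 was called lower in that fit, against 0.00616% of all features. At an unadjusted p under 0.05, 1 of the 10, Piwil4, was lower there, against 1.63% of all features. With the block 4 of the 10 were called higher and 1, Piwil4, lower, against 3.80% and 0.492% of all features. DESeq2 called none of the 10 lower in any comparison of conditions. Mael, a germ granule protein, was at 5.92 and 6.42 CPM in WT and at 64.1 and 77.7 CPM in Setdb1 KO mESCs. Both KO libraries were about 10 times the WT libraries, with a log2 fold change of 3.52 (SE 0.413, adjusted p = 0.00972). Mov10l1, the piRNA precursor helicase, was at 7.84 and 8.08 CPM in WT and at 68.0 and 76.6 CPM in Setdb1 KO mESCs. Its groups were likewise far apart, with a log2 fold change of 3.18 (SE 0.402, adjusted p = 0.0108). Without WT replicate 1 the adjusted p of both genes was 0.153, and without WT replicate 2 it was 0.133 for Mael and 0.157 for Mov10l1, where 0 of all features were called in either fit. The log2 fold changes of Mael stayed between 3.35 and 3.65 and those of Mov10l1 between 3.07 and 3.26 whichever of the 8 libraries was left out.

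Among the PIWI genes, Piwil2 and Piwil4 had opposite signs. Piwil2, the slicer, was at 22.1 and 26.0 CPM in WT and at 91.5 and 60.2 CPM in Setdb1 KO mESCs. Both KO libraries were above both WT libraries, with a log2 fold change of 1.66 (SE 0.407, adjusted p = 0.120). Piwil4, the nuclear PIWI, was at 1.74 and 2.53 CPM (20 and 70 counts) in WT and at 0.339 and 0.495 CPM (8 and 9 counts) in Setdb1 KO mESCs. Its KO libraries were the lowest of the 8, with a log2 fold change of -2.36 (SE 0.653, adjusted p = 0.185). Ddx4, a germ granule helicase, was at 40.3 and 24.0 CPM in WT and at 124 and 85.5 CPM after deletion of Setdb1, without overlap (log2 fold change 1.71, SE 0.438, adjusted p = 0.140).

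With the replicate number as a block, which the data allow as a pairing, Piwil2 (adjusted p = 0.0164) and Ddx4 (adjusted p = 0.00643) were also called higher and Piwil4 was called lower (adjusted p = 0.0426). In that fit 3.80% of all features were called higher and 0.492% lower. Tdrd9, a helicase partner of PIWIL4, was at 0.348 and 0.217 CPM in WT and at 2.08 and 3.85 CPM in Setdb1 KO mESCs. Its log2 fold change of 3.42 (SE 1.08) had an adjusted p of 0.266, and 0.0550 with the block, but it was called by DESeq2 on all 8 libraries (adjusted p = 0.0404) and on 4 (adjusted p = 0.0192). DESeq2 on all 8 libraries called 5 of the 10 genes higher, Mael, Mov10l1, Piwil2, Ddx4 and Tdrd9, against 3.23% of the features for which it gave an adjusted p.

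The other members showed smaller differences in Setdb1 KO mESCs. Tdrd1, the MILI-binding Tudor protein, was at 1.74 and 1.12 CPM in WT and 3.09 and 3.03 CPM in Setdb1 KO mESCs. Tdrd5, which acts on piRNA precursors, was at 5.31 and 5.63 CPM and then at 4.02 and 4.62 CPM. Pld6, the nuclease, was at 3.31 and 4.98 CPM in WT and at 1.27 and 3.36 CPM in Setdb1 KO mESCs, with overlapping groups. None of these 3 passed the test with or without the block. Asz1 was at 0.0871 and 0.469 CPM in WT and 0.423 and 0.275 CPM in Setdb1 KO mESCs, so deletion alone left it near the floor. In all, 6 of the 10 genes were higher and 2 lower in both KO libraries than in both WT libraries, where 17.5% and 13.1% of all features were. The median log2 fold change of the 10 was 1.38, against -0.0571 over all tested genes.

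The next comparison asked what inhibition of G9a and GLP does by itself. UNC0642 alone called 0 of the 10 genes by edgeR, and it called 0% of all features higher and 0% lower. With the block 0 members and 0.166% of all features, all higher, were called. DESeq2 also called 0 members, where it called 112 features (all higher) on all 8 libraries and 98 on 4. At an unadjusted p under 0.05 edgeR had 1 of the 10 genes, Asz1, as higher, against 2.96% of all features. Asz1, the mitochondrial scaffold, was at 2.40 and 2.05 CPM (51 and 57 counts) in UNC0642-treated mESCs and at 0.0871 and 0.469 CPM (1 and 13 counts) in WT. Both treated libraries were above both WT libraries, with a log2 fold change of 2.82 (SE 0.755, adjusted p = 0.574, and 0.178 with the block). Within replicate 1 the ratio was 27.5 (95% counting interval 4.72 to 1110), since the WT library had 1 count, and within replicate 2 it was 4.37 (2.36 to 8.70). These intervals cover counting error only.

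Genes that were high in Setdb1 KO mESCs were near their WT levels with UNC0642 alone. Mael was at 4.80 and 5.25 CPM, Mov10l1 at 8.46 and 9.17 CPM, and Piwil2 at 26.7 and 28.4 CPM. Ddx4 was at 43.2 and 28.7 CPM, overlapping WT. Piwil4 was at 4.00 and 3.63 CPM, above both WT libraries, with a log2 fold change of 0.83 (SE 0.598, adjusted p = 1). Tdrd1 (2.35 and 1.30 CPM), Tdrd5 (2.96 and 5.36 CPM), Tdrd9 (0.188 and 0.720 CPM) and Pld6 (2.40 and 4.39 CPM) overlapped WT. The groups did not overlap for 4 genes that were higher and 1 that was lower, against 13.7% and 10.7% of all features. The median log2 fold change of the 10 was 0.179, against -0.0391 over all tested genes.

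**Figure D3:**
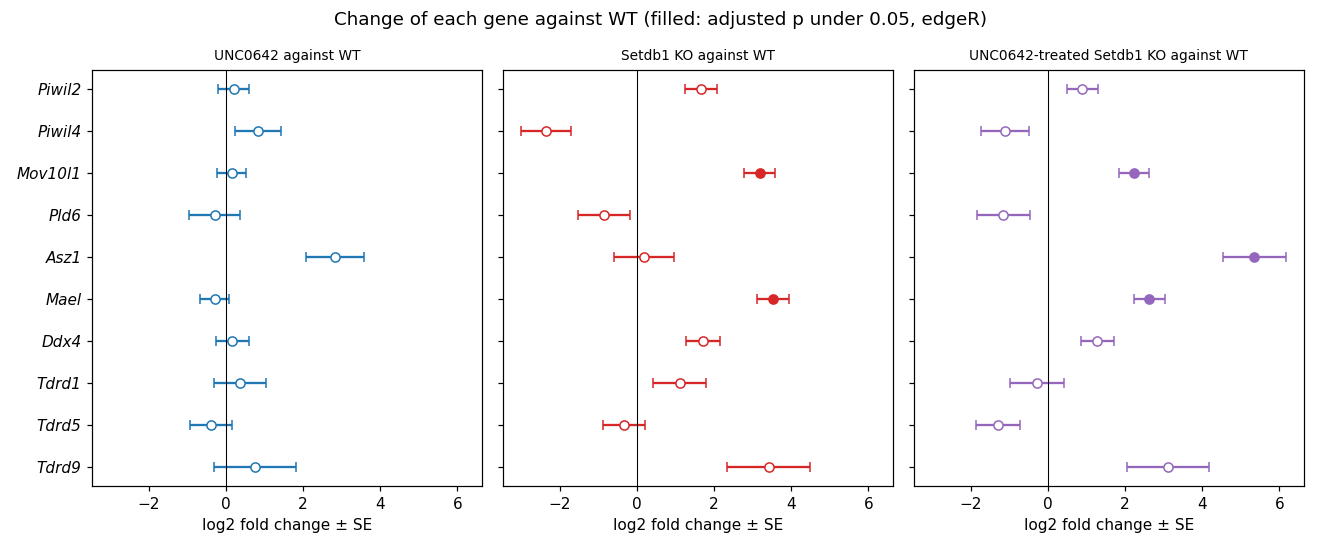
Log2 fold change of each gene against WT with its SE for UNC0642 alone, Setdb1 deletion alone and both together; filled points passed an adjusted p under 0.05 (edgeR). No point is filled for UNC0642 alone, Mov10l1 and Mael are filled in both KO conditions, and Asz1 is filled in the combined condition at 5.35.

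In the combined condition, Asz1, Mael and Mov10l1 were all above WT, but Mael and Mov10l1 less so than after deletion of Setdb1 alone. These 3 of the 10 genes passed the test, against 3.60% of all features called higher, and 0 were called lower, against 0.505% (edgeR). At an unadjusted p under 0.05, 5 of the 10 were higher, against 10.9% of all features, and 1, Tdrd5, was lower, against 7.11%. With the block 0 were called lower, against 7.19% of all features. The 3 comparisons with WT share the same 2 WT libraries. Asz1 was at 9.86 and 15.9 CPM (95 and 433 counts) in the combined condition. Both libraries were above all 6 others, and the log2 fold change against WT was 5.35 (SE 0.816, adjusted p = 0.00899). Within replicate 1 the ratio to WT was 113 (95% counting interval 19.8 to 4520), and within replicate 2 it was 33.9 (19.6 to 64.2). Per kilobase of transcript Asz1 moved from above 8.87% of tested genes in WT to above 56.4% in the combined condition.

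Mael was at 38.2 and 38.0 CPM in UNC0642-treated Setdb1 KO mESCs, with a log2 fold change against WT of 2.62 (SE 0.399, adjusted p = 0.00894). Mov10l1 was at 34.8 and 39.8 CPM, with a log2 fold change of 2.23 (SE 0.388, adjusted p = 0.0151). Both genes thus lay between WT and Setdb1 KO mESCs in all libraries. Without WT replicate 1 the adjusted p was 0.0771 for Asz1, 0.0920 for Mael and 0.115 for Mov10l1, and without WT replicate 2 it was 0.0512, 0.0804 and 0.117. The log2 fold change of Asz1 was then 4.76 and 7.12, the latter against the WT library with 1 count. Mov10l1 also lost its call without UNC0642-treated Setdb1 KO replicate 2 (adjusted p = 0.0656).

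Ddx4 was at 80.1 and 75.7 CPM in the combined condition, above both WT libraries (log2 fold change 1.28, SE 0.433, adjusted p = 0.151), and it was called with the block (adjusted p = 0.00991). Tdrd9 was at 0.623 and 4.05 CPM (6 and 110 counts), and its call with the block (adjusted p = 0.0486) comes with replicates that differ by more than 6 times. In the blocked fit 9.98% of all features were called higher. DESeq2 on all 8 libraries called 4 of the 10 genes higher, Asz1, Mael, Mov10l1 and Tdrd9, against 5.97% of features. Piwil2 was at 51.7 and 37.5 CPM, above WT without passing the test (adjusted p = 0.284, and 0.0693 with the block). Piwil4 was at 0.934 and 1.03 CPM, Pld6 at 1.97 and 1.77 CPM and Tdrd5 at 2.49 and 1.99 CPM, all 3 below both WT libraries and none past the test. Tdrd1 was at 1.66 and 0.735 CPM and overlapped WT. Groups did not overlap for 6 higher and 3 lower genes, against 22.3% and 21.1% of all features. The median log2 fold change was 1.08, against -0.0612 over all tested genes.

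Set against Setdb1 KO mESCs, the addition of UNC0642 had opposite signs for Asz1 and for most other genes. By the labels the 2 conditions also differ in days of 4-OHT, which cannot be told apart from UNC0642. By edgeR 0 of the 10 genes passed, as did 0% of all features in either direction, and at an unadjusted p under 0.05 1 of the 10 was higher and 2 were lower, against 2.79% and 1.79% of all features. With the block Asz1 was called higher (adjusted p = 0.0313), where 0.123% of all features were, and DESeq2 on all 8 libraries also called this 1 gene, against 0.569% of features called higher. Asz1 had a log2 fold change of 5.17 (SE 0.804, adjusted p = 0.240), and its ratio was 23.3 (95% counting interval 12.1 to 50.1) within replicate 1 and 57.8 (24.6 to 179) within replicate 2. Piwil4 was also higher in both combined libraries than in both Setdb1 KO libraries (log2 fold change 1.24, SE 0.655, adjusted p = 1).

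The other genes without overlap were lower in the combined condition than in Setdb1 KO mESCs. They were Piwil2, Mael, Mov10l1, Ddx4, Tdrd1 and Tdrd5, so 2 of the 10 genes were higher and 6 lower, against 12.2% and 13.3% of all features. The log2 fold change was -0.96 for Mov10l1 (SE 0.372, adjusted p = 0.962), -0.90 for Mael (SE 0.375, adjusted p = 1) and -1.39 for Tdrd1 (SE 0.699, adjusted p = 1). None of the 6 passed the test with or without the block. The median over the 10 genes was -0.599, against -0.0243 over all tested genes.

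**Figure D4:**
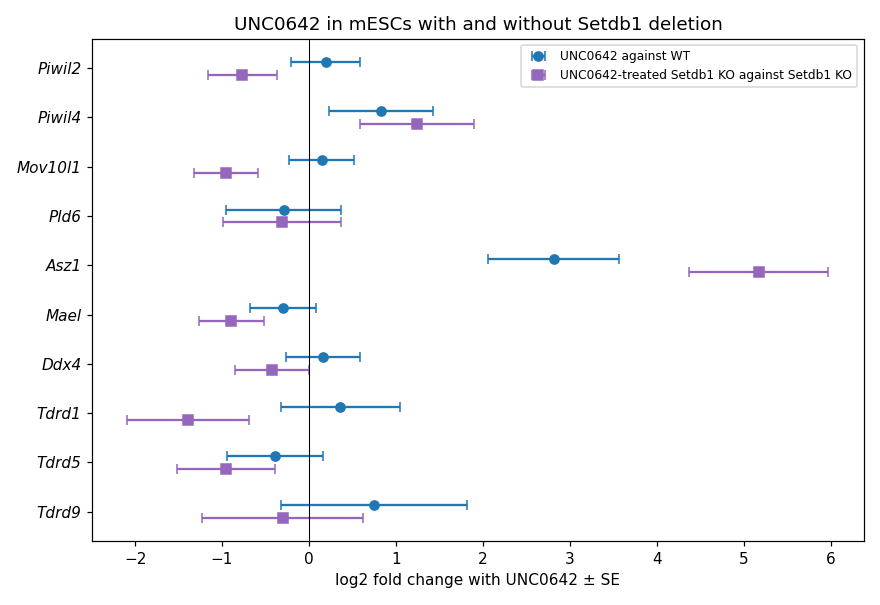
Log2 fold change with UNC0642 and its SE, in WT mESCs (blue circles) and in Setdb1 KO mESCs (purple squares), for each gene. Asz1 is highest in both, at 2.82 and 5.17, and the purple squares of Piwil2, Mov10l1, Mael, Tdrd1 and Tdrd5 lie between -0.77 and -1.39.

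The difference between these 2 effects of UNC0642 was tested as an interaction. By edgeR it called 0 of the 10 genes, with and without the block, as did DESeq2, and 0% of all features in either direction. At an unadjusted p under 0.05 it had 1 of the 10, Asz1, against 0.751% of all features. Its interaction was 2.36 on the log2 scale (SE 1.04, adjusted p = 1), and 0.591 to 2.93 when 1 library was left out. No difference between the 2 effects passed the test for any of the 10 genes.

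Compared with UNC0642 alone, UNC0642-treated Setdb1 KO mESCs again had higher Mael and Mov10l1. These 2 of the 10 genes passed, against 1.13% of all features called higher, and 0 were called lower by edgeR, against 0.0369% (1 of the 10, Piwil4, was lower at an unadjusted p under 0.05, against 2.70% of all features). The log2 fold change was 2.92 for Mael (SE 0.403, adjusted p = 0.0139) and 2.08 for Mov10l1 (SE 0.385, adjusted p = 0.0411). With the block Asz1 (adjusted p = 0.0331) and Ddx4 (adjusted p = 0.0352) were called as well, where 3.82% of all features were called higher. DESeq2 on all 8 libraries called 3 of the 10, Mael, Asz1 and Mov10l1, against 2.84% of features. Without UNC0642 replicate 1 or 2 the adjusted p of Mael was 0.182 and 0.165. The call for Mov10l1 was lost without any 1 of the 8 libraries, with a log2 fold change between 1.99 and 2.16.

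Across the 8 libraries the 10 genes did not share 1 pattern. Over log2 CPM, Mael and Mov10l1 had a Pearson correlation of 0.992, and both correlated with Ddx4 (0.910 and 0.921) and Piwil2 (0.905 and 0.923). Piwil4 ran opposite to them, at -0.945 with Mael and -0.929 with Mov10l1. Asz1 was apart from both, at 0.146 with Mael and 0.116 with Piwil4, and its largest value was -0.849 with Tdrd5. These are descriptions over 8 points that share libraries, conditions and depth. The 5 genes whose profile was most like the mean standardized profile of the 10 were Pilra (0.957), Pou6f1 (0.957), Mmp10 (0.954), Krt7 (0.950) and Btbd18 (0.948, Pearson's r over 8 libraries). Btbd18, which encodes a regulator of piRNA precursor transcription in the testis, was at 1.39 and 1.52 CPM in WT, 1.50 and 3.56 in UNC0642-treated, 24.5 and 16.9 in Setdb1 KO and 9.24 and 9.01 CPM in UNC0642-treated Setdb1 KO mESCs. Like Mael, it was highest in Setdb1 KO mESCs and intermediate in the combined condition, but it was picked for such a profile in these same libraries. Mmp10 had 0 counts in every WT and UNC0642-treated library, and Krt7 had 6 to 29 counts in the 8 libraries.

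Of 23 further genes of the pathway, 22 were in the table and 21 were tested. In Setdb1 KO mESCs 3 of the 21 were called higher and 0 lower (8 higher with the block). Over all features 1.11% were called higher (3.80% with the block). The median log2 fold change was 1.03, against -0.0571 over all tested genes. In UNC0642-treated Setdb1 KO mESCs 4 of 21 were called higher and 0 lower (9 higher with the block). Over all features 3.60% were called higher there (9.98% with the block). The median was 0.761, against -0.0612 over all tested genes. UNC0642 alone called 0 of them by edgeR, with and without the block, and without the block 0 had an unadjusted p under 0.05. With the block Gtsf1 and Morc1 were higher at an unadjusted p of 0.0138 and 0.0451 (adjusted p = 0.414 and 0.575). Gtsf1, which encodes a partner of PIWI slicing, was at 1.22 and 1.59 CPM in WT, 3.57 and 2.73 in UNC0642-treated, 6.44 and 8.31 in Setdb1 KO and 18.2 and 24.5 CPM in the combined condition. It was lowest in WT and highest in the combined condition, with a log2 fold change there of 3.91 (SE 0.555, adjusted p = 0.00703). Stk31, a Tudor domain kinase, was at 26.1 and 11.6 CPM in WT and at 335 and 291.8 CPM after deletion of Setdb1 (log2 fold change 4.06, SE 0.593, adjusted p = 0.0158). It was at 235 and 438 CPM in the combined condition (log2 fold change 4.16, SE 0.596, adjusted p = 0.00736). The log2 fold change of Btbd18 was 3.82 in Setdb1 KO mESCs (SE 0.618, adjusted p = 0.0254) and 2.64 in the combined condition (SE 0.593, adjusted p = 0.0417). Rnf17 was the remaining gene called in both (log2 fold change 2.68 and 2.18, adjusted p = 0.0464 and 0.0468), and it is named because the counts are small.

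Widely expressed relatives of the 10 genes (Argonautes, Mov10, Ddx3x, Tdrd3 and Snd1) had 0 of 8 called in all 3 comparisons with WT by edgeR, and in the combined condition 1 was higher and 2 were lower at an unadjusted p under 0.05, where 10.9% and 7.11% of all features were. With the block Tdrd3 was called higher (log2 fold change 1.60, adjusted p = 0.00520) and Snd1 lower (-1.07, adjusted p = 0.0209) there. That fit called 9.98% of all features higher and 7.19% lower. The other gene called lower with the block was Mov10 (-1.01, adjusted p = 0.0364), the somatic relative of Mov10l1, which is named because the count is small. The third gene by p, Ago4, had a log2 fold change of -2.00 without the block (adjusted p = 0.206). Of 12 repressors of germline genes, including E2f6, Mga, Max, Pcgf6, Dnmt1 and Ehmt2 (G9a), 0 were called by edgeR in the 3 comparisons. With the block 1 was called lower in Setdb1 KO mESCs, Setdb1, against 0.492% of all features. In the combined condition 2 were, Setdb1 and Ehmt2 (log2 fold change -1.20, adjusted p = 0.0235), against 7.19% of all features. Setdb1 is the gene deleted in both conditions, so its call follows from the design and is no result about the list. Without the block Dnmt1 had a log2 fold change of -0.78 in the combined condition (adjusted p = 0.487).

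Retroelements, the targets of the pathway, rose in Setdb1 KO conditions. Of 7 subfamilies listed (IAPEz-int and 6 of L1Md), 2 were called higher in Setdb1 KO mESCs (7 with the block) and 7 in UNC0642-treated Setdb1 KO mESCs. Over all features these shares were 1.11% (3.80% with the block) and 3.60%. IAPEz-int, an endogenous retrovirus, was at 418 and 281 CPM in WT, 427 and 267 in UNC0642-treated, 6028 and 8237 in Setdb1 KO and 12430 and 7096 CPM in the combined condition. Both KO conditions were far above WT (log2 fold change 4.35, adjusted p = 0.0166, and 4.80, adjusted p = 0.00700), and UNC0642 alone overlapped it. L1Md_Gf, a young LINE-1, was at 16.4 and 16.4 CPM in WT, 92.6 and 62.6 in UNC0642-treated, 482 and 145 in Setdb1 KO and 1078 and 432 CPM in the combined condition. L1Md_A had a log2 fold change of 4.80 in the combined condition (adjusted p = 0.0116). In the Setdb1 KO and combined conditions, high transcripts of Mael and Mov10l1 thus occurred in the same libraries as high retroelement transcripts. UNC0642 alone had 5 of the 7 subfamilies above WT without overlap, against 13.7% of all features, and 0 called by edgeR. Mael and Mov10l1 were near WT there. From Setdb1 KO to the combined condition the summed subfamilies went from 30720 and 15940 to 61680 and 25420 CPM, with overlap. L1Md_T alone went from 18000 and 5062 to 36910 and 13560 CPM. IAPEz-int rose in replicate 1 (6028 to 12430 CPM) and fell in replicate 2 (8237 to 7096 CPM). Mael and Mov10l1 were lower in the combined condition than in Setdb1 KO mESCs. A link between these genes and the retroelements was not tested.

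Markers of other cell states moved with some of these values. Two-cell-like cells are a rare state of mESC cultures with transcripts of the 2-cell embryo, and their 6 markers together were at 7.23 and 21.0 CPM in WT, 631 and 203 in UNC0642-treated, 298 and 111 in Setdb1 KO and 1136 and 490.5 CPM in the combined condition. In the combined condition 6 of 6 were called higher by edgeR, against 3.60% of all features. The log2 fold change was 5.77 for Usp17lc (adjusted p = 0.00700), 6.14 for Zscan4d (adjusted p = 0.00948) and 7.29 for Zfp352 (adjusted p = 0.00998). In WT replicate 1, 2 of the 6 were at 0, among them Zfp352. The summed marker level and Asz1 were both higher with UNC0642 alone than in WT and highest in the combined condition, but in Setdb1 KO mESCs the markers were above WT and Asz1 was not. The part of this state in the values of the 10 genes was not tested, and in bulk RNA more cells of a type and more RNA per cell cannot be told apart. Of 5 meiotic markers tested, 1 passed by edgeR, in the combined condition, against 3.60% of all features called higher. It was Sycp3, a synaptonemal complex gene (17.4 and 5.02 CPM in WT, 73.5 and 90.9 CPM there, log2 fold change 2.88, adjusted p = 0.0436). Sycp1 had a log2 fold change of 3.46 (adjusted p = 0.0685, and 0.00116 with the block), and Stra8 was at 282 and 129 CPM in WT and 28.2 and 107.5 CPM there. Of the 5, 2 had a log2 fold change above 0 and 3 (Stra8, Dmc1 and Prdm9, none past the test) below 0, with a median of -0.801.

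**Figure D5:**
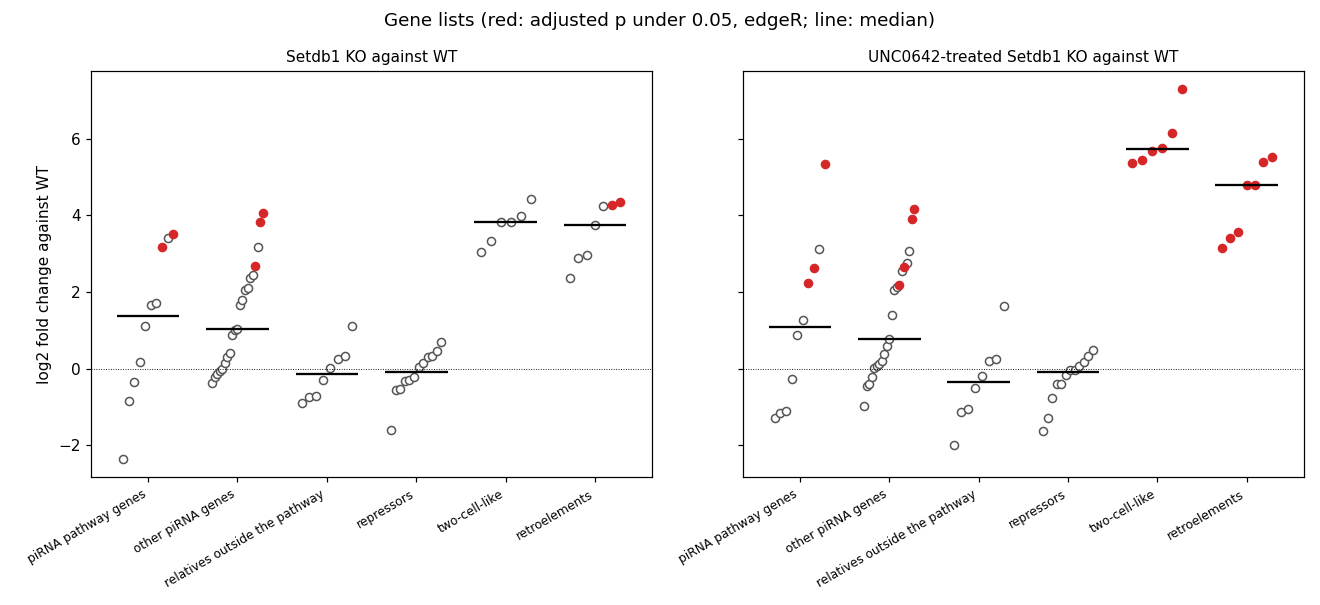
Log2 fold change against WT of the tested genes of 5 lists and of 7 retroelement subfamilies with Setdb1 deletion alone (left) and with UNC0642 added (right); red points passed an adjusted p under 0.05 (edgeR) and lines mark medians. The 10 piRNA pathway genes spread from -2.36 to 3.52 and from -1.30 to 5.35, and relatives outside the pathway have no red point.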

How the data were processed

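Poly(A) RNA-seq of 8 mESC libraries, 4 conditions with 2 biological replicates each, was used, with conditions and replicate numbers taken from the labels. The authors trimmed reads with Trim Galore 0.3.7, mapped them to mm10 with TopHat2 and counted them with TEtranscripts, per the labels and the study's methods. The deposited values are raw counts for 24062 genes and 1153 transposable element subfamilies, without normalization, and a count of 3 was taken as the floor. Libraries held 11702590 to 26807807 counts, so low genes such as Asz1 and Tdrd9 rest on few counts.

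The filter of edgeR on low counts (at least 10 in a library and 15 in total) kept 15313 genes and 932 subfamilies, which were scaled by TMM (factors 0.810 to 1.20). A quasi-likelihood model with 1 coefficient per condition was fitted to all 8 libraries in edgeR 4.0.16 (R 4.3.3, prior count 0.125). Benjamini-Hochberg adjustment of p-values was over all 16245 features, a gene was called at an adjusted p under 0.05, and SEs came from the F statistics. The pipeline was tested on simulated data. Between conditions (6 pairs), deviations of same-numbered replicates had correlations of 0.285 to 0.663 over genes, so replicate numbers were taken to pair libraries, and a fit with the number as a block was also made. Calls by edgeR are from the fit without the block, which ignores that pairing, unless the block is named. Alternatives were DESeq2 1.42.0, fits on 4 libraries, other normalizations, no filter, a prior count of 2, thinned counts, a fold above 10 and leaving out each library. Transcript lengths came from GENCODE M21 and promoters from RefSeq. Counting intervals are exact (95%). Figures were drawn with matplotlib 3.10.9 in Python 3.11.15.

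The 10 genes, the further lists and the motifs were chosen with earlier results of these data known. From each further list the 3 genes with the smallest unadjusted p in UNC0642-treated Setdb1 KO against WT were named beside the whole count, together with the 5 genes of the most similar profile. Piwil2 had no promoter window here.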

Additional observations from a re-analysis of the deposited data

Results flagged for a closer look

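The effect of UNC0642 differed between Setdb1 KO and WT mESCs at an unadjusted p under 0.05 in 4 of the 10 genes, by edgeR with or without the replicate block, and every adjusted p was 1. Over all 16245 features 0.751% had such a p without the block and 2.33% with it. The interaction on the log2 scale was 2.36 for Asz1 (unadjusted p = 0.0489, and 0.0329 with the block), which was higher with UNC0642 in both backgrounds. Leaving out 1 library gave 0.591 to 2.93 for Asz1. The interaction was -1.10 for Mov10l1 (unadjusted p = 0.0644, and 0.00955 with the block), -0.961 for Piwil2 (0.121 and 0.0412) and -1.75 for Tdrd1 (0.105 and 0.0321). In these 3 genes the log2 fold change with UNC0642 was above 0 in WT and below 0 in Setdb1 KO mESCs. The days of 4-OHT, which differ between the 2 KO conditions by the labels, cannot be told apart from this difference.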

How the results depend on the processing

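Blocking on the replicate number, the count of the 10 genes called was 5 in Setdb1 KO against WT, 5 in UNC0642-treated Setdb1 KO against WT, 1 in that condition against Setdb1 KO and 4 against UNC0642, and the block changed no other call of the 10 genes. In the same order, that fit called 698, 2790, 21 and 755 of all features. DESeq2 on all 8 libraries called 5 in Setdb1 KO against WT, 4 in the combined condition against WT, 1 in it against Setdb1 KO and 3 in it against UNC0642. It called 562, 1474, 106 and 571 of all features there. DESeq2 on 4 libraries also called 1 against Setdb1 KO, where it called 110 of all features. A fold above 10 left 1 gene in each KO condition against WT and 0 in the combined condition against UNC0642. The share of all features above that fold is not given here. In the combined condition against UNC0642, edgeR on 4 libraries and scaling by total counts each left 1, where they called 140 and 82 of all features. Leaving out 1 library gave 0 to 2 genes in Setdb1 KO against WT, 0 to 3 in UNC0642-treated Setdb1 KO against WT and 0 to 1 in that condition against UNC0642. Each count of 0 against WT came without WT replicate 1 or 2, which leaves 1 WT library assumed to vary like the other conditions.

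Within a comparison, signs turned only in genes that edgeR did not call there. Leaving out 1 library gave, for UNC0642 against WT, log2 fold changes of -0.123 to 0.706 for Tdrd1, -0.544 to 1.39 for Tdrd9, -0.155 to 0.589 for Ddx4 (-0.147 without WT replicate 2) and -0.827 to 0.0800 for Pld6 (0.0662 without WT replicate 2). For Asz1 in Setdb1 KO against WT it gave -0.407 to 1.93 (-0.177 without Setdb1 KO replicate 1), and for Tdrd1 in the combined condition against WT -0.940 to 0.238 (0.0454 without WT replicate 1). Against Setdb1 KO the combined condition gave -2.19 to 0.446 for Tdrd9 (0.214 without Setdb1 KO replicate 2) and -0.851 to 0.563 for Pld6. The interaction of Tdrd9 ranged from -2.95 to 0.259. That of Pld6, near 0 in the main fit, was 0.0338 with DESeq2, 0.116 with the replicate block, 0.0270 with RLE, 0.193 with thinned counts and -0.564 to 0.861 without 1 library. The cause was not tested. Scaling by total counts moved the median of all genes to -0.234 in the combined condition against WT and to -0.261 against UNC0642, from -0.0612 and -0.0526.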
